A study of Rattus norvegicus with 9 samples.

Results

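The report covers 9 genes of liver glucose output and of its hormonal control, namely Pck1, G6pc, Fbp1, Pc, Insr, Irs1, Irs2, Foxo1 and Gcgr. They were chosen by name and not by a cut on measured values, but with earlier results of these data known. They are represented by 15 of the 31042 probe sets of the array, control probe sets apart. Liver RNA was measured on 9 Affymetrix rat arrays, 1 for each of 9 male Goto-Kakizaki (GK) rats, a strain that becomes diabetic spontaneously, bought at 5 weeks of age. The 3 groups of 3 rats were CUMS 1–3, labelled major depression, CUMS 4–6, labelled mild depression, and control 1–3, labelled without depression. CUMS is chronic unpredictable mild stress, given here for 8 weeks with single housing, and the controls went without it. Per the study's methods, all rats were diabetic before they were assigned to groups and all were gavaged with repaglinide, a drug that makes the pancreas release insulin, in a pharmacokinetic experiment that ended before the livers were taken. The feeding state at that point is not given in the sources used here. In whole liver, fewer cells of a type and less RNA per cell cannot be told apart.

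Between meals the liver makes glucose from lactate, glycerol and amino acids. Pyruvate carboxylase and the cytosolic phosphoenolpyruvate carboxykinase carry pyruvate to phosphoenolpyruvate, fructose-1,6-bisphosphatase reverses a key step of glycolysis, and glucose-6-phosphatase releases free glucose. Glucagon, through its receptor, cAMP and the factor CREB, raises transcription of these enzymes. Insulin lowers it, through its receptor, the docking proteins IRS1 and IRS2 and the kinase AKT, which keeps the factor FOXO1 out of the nucleus. A liver that resists insulin goes on making glucose after a meal, which is a hallmark of type 2 diabetes.

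The promoters of Pck1 and G6pc are shown because both enzymes are textbook targets of these signals, and their array signals differed in how much they varied among CUMS rats. Whether the promoter letters bear on that variation was not tested. The RefSeq table (build GRCr8, from 250 bases before to 50 after each start) held promoters for Pck1, G6pc, Fbp1, Insr, Irs1, Foxo1 and Gcgr, and they were searched on both strands for TGACGT, letters of the cAMP response element bound by CREB, and for TGTTTAC, letters of a FOXO site. The first set of letters occurs in 7.94% and the second in 3.78% of all 33469 promoters of this length in the table, and the 2 motifs did not overlap in any promoter shown. In Pck1 (chr3:182348322-182348621, plus strand) the capitals mark the only match, TGACGT read on the opposite strand, whose first base lies 91 bases upstream of the start:
Pck1: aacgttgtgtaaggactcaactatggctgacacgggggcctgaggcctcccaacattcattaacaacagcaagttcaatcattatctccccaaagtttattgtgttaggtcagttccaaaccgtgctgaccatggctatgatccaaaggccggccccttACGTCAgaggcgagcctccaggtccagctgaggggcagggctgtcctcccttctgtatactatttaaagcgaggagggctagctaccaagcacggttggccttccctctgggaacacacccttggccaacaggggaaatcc
The promoter of G6pc (chr10:86807409-86807708, plus strand) held neither set of letters and so has no capitals:
G6pc: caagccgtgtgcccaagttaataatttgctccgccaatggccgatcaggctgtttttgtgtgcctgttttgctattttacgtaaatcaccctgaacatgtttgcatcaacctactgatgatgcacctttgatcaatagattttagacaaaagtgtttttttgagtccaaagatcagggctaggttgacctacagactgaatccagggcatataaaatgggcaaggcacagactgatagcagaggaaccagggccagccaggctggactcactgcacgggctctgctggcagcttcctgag
In Insr, the capitals mark TGTTTAC on the strand of the gene, with its first base 100 bases upstream of the start, shown with its surroundings (chr12:6128872-6128928, minus strand):
Insr: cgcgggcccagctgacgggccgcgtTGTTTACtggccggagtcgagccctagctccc
No match in these windows was found for Fbp1, Irs1, Foxo1 or Gcgr. The promoter of Igfbp1, a gene that FOXO1 raises, was searched in the same way and held neither set of letters. Only exact letters were searched, so the lack of a match does not show that a site is absent. A match is a run of letters and says nothing on binding in these livers.

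The arrays were in the main alike, with control 3 standing apart. Its median correlation with the other arrays was 0.951, against 0.965 to 0.972 for the other 8 arrays. The summed signal of stellate cell and fibroblast markers was 6708 to 7705 in major depression and 8337 to 10381 in mild depression, against 11291, 11181 and 44844 in control 1, 2 and 3, so that all CUMS rats lay below all controls. All 14 of these markers tested were lower in mean in both CUMS groups than in control, with median log2 fold changes of −1.07 in major and −0.71 in mild depression, and 0 were called. Bile duct cell markers summed to 9492 in control 3, against 787 to 1289 in the other 8 arrays. The part of these cells in the values of the members was not tested. Of 15 hepatocyte markers, 14 were named on the array and all 14 lay above the signal filter, with sums of 324000 to 369700 in major depression, 378900 to 406000 in mild depression and 308700 to 379300 in control. The beta-actin ratio between 3′ and 5′ probe sets, a measure of RNA degradation, was 5.23 in CUMS 2 and 4.96 in CUMS 4, and 2.51 to 3.73 in the other 7 arrays.

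None of the 9 genes had a liver signal that differed between stressed and unstressed diabetic rats by more than the test could tell from the spread among rats. The test was limma over the 18626 probe sets above the signal filter, 13 of which belong to the members, and a call meant an adjusted p (Benjamini-Hochberg) under 0.05. In major depression against control, 0 of the 13 were called, beside 0% of all probe sets tested, and 0 of 13 had an unadjusted p under 0.05, beside 6.76% of all. The 3 signals of major depression lay apart from the 3 of control in 1 of the 13, a probe set of Foxo1, and in 11.6% of all. In mild depression against control, 0 of 13 were called, beside 0% of all, 0 had an unadjusted p under 0.05, beside 6.28% of all, and 1 lay apart, the probe set 1372506_at, which is annotated to 3 genes, beside 11.6% of all. In all CUMS rats against control the counts were 0, 0 and 0 of 13, beside 0%, 7.93% and 3.68% of all probe sets. In major against mild depression they were again 0, 0 and 0 of 13, beside 0%, 2.85% and 9.11% of all. The other 2 probe sets, both of Foxo1, lay below the filter.

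**Figure D1:**
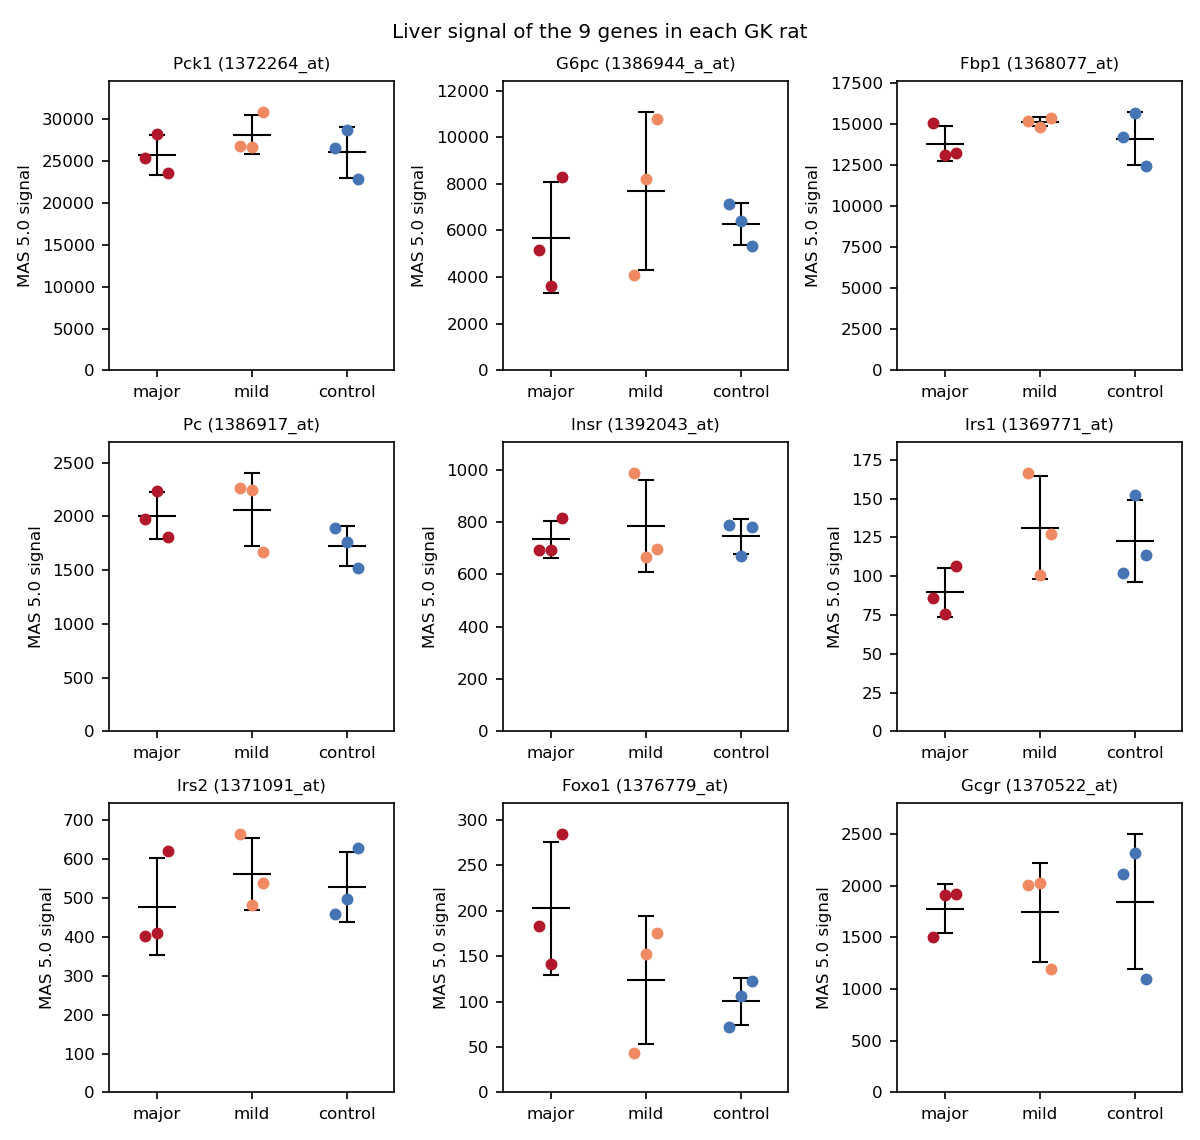
MAS 5.0 signal (linear axis from 0) of the main probe set of each of the 9 genes in major depression, mild depression and control. Points are rats, and the bar and whiskers are mean ± SD (n = 3 each). Pck1 and Fbp1 points lie close together in each group, G6pc points are spread in both CUMS groups, and the lowest Foxo1 point of major depression, 141, lies above the highest of control, 123.

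Pck1, which encodes cytosolic phosphoenolpyruvate carboxykinase, was among the strongest signals of these livers, with a mean log2 signal above that of 99.8% of probe sets. Its probe set 1372264_at (gene on chromosome 3, 182348572 to 182354521, GRCr8) read 25354, 28261 and 23512 in major depression, 26823, 26686 and 30787 in mild depression, and 26502, 28720 and 22805 in control. The groups overlapped, with the highest rat in mild depression and the lowest, control 3, in control. The log2 fold change was −0.01 (standard error 0.11, 95% interval −0.26 to 0.23, adjusted p = 0.990, limma) in major depression against control and 0.11 (standard error 0.11, 95% interval −0.13 to 0.36, adjusted p = 0.897, limma) in mild depression against control.

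Fbp1 encodes fructose-1,6-bisphosphatase. Its probe set 1368077_at read 15050, 13140 and 13270 in major depression, 15198, 14856 and 15402 in mild depression, and 14241, 15659 and 12465 in control. Mild depression held the narrowest range, and it lay inside that of control. Its log2 fold change was −0.03 (95% interval −0.25 to 0.20) in major and 0.11 (95% interval −0.12 to 0.33) in mild depression against control, with adjusted p = 0.975 and 0.891 (limma). Over the 6 CUMS rats, Pck1 and Fbp1 were among the least variable of the members. The SD of log2 signal there was 0.13 for Pck1 and 0.10 for Fbp1, and 17.8% and 8.66% of tested probe sets had a lower SD. Over the controls the SD was 0.17 for each, where 35.2% and 34.2% of tested probe sets had a lower one. Insr (1392043_at, 0.13) and Pc (0.16) were among the members with a lower SD over the controls. Pck1 and Fbp1 also had the strongest mean signals of the members, above 99.8% and 99.2% of probe sets. The shares were not matched for signal strength, whose part in the low SD was not tested.

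Pc, the gene of pyruvate carboxylase, the mitochondrial enzyme that starts the path from pyruvate, had the higher mean signals in CUMS rats, within the spread of the rats. Its probe set 1386917_at read 1973, 2239 and 1806 in major depression, 2267, 2247 and 1670 in mild depression, and 1895, 1762 and 1521 in control. Of the CUMS rats, CUMS 1, 2, 4 and 5 lay above all controls, while CUMS 3 and CUMS 6 lay among them. The estimated log2 change was 0.22 with a standard error of 0.15 (adjusted p = 0.820, limma) in major depression, 0.25 (standard error 0.15, adjusted p = 0.821) in mild depression and 0.23 (adjusted p = 0.712) in all CUMS rats, each against control. An exact two-sided permutation test of all CUMS rats against control gave p = 0.143 for Pc, the smallest of the 9 genes, and 1.0 after adjustment over the 9, where the smallest p that the design allows is 0.0238. Without control 3 the log2 fold change in all CUMS rats was 0.14.

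G6pc, the catalytic subunit of glucose-6-phosphatase, had signals that were widely spread among the stressed rats, on both sides of the controls. The probe set 1386944_a_at (gene on chromosome 10, 86807659 to 86819023, GRCr8) read 5146, 3622 and 8282 in major depression, 4071, 8186 and 10777 in mild depression, and 7133, 6407 and 5324 in control. Both CUMS groups held rats below and above all controls: CUMS 1, 2 and 4 lay below them, and CUMS 3, 5 and 6 above. The highest signal was 2.29 times the lowest in major depression, 2.65 times in mild depression and 1.34 times in control, with 3 rats each. Over all 6 CUMS rats it was 2.98 times, a ratio that tends to grow with the number of rats. The fitted log2 fold change was −0.22 (standard error 0.35, 95% interval −0.99 to 0.55, adjusted p = 0.939, limma) in major depression, 0.19 (standard error 0.35, 95% interval −0.58 to 0.95, adjusted p = 0.956) in mild depression and −0.02 (adjusted p = 0.995) in all CUMS rats against control. The SD of log2 signal was 0.63 over the CUMS rats, where 95.2% of tested probe sets had a lower one, and 0.21 over the controls, where 46.6% did. The medians over all probe sets tested were 0.24 in CUMS rats and 0.23 in controls. The difference in spread between the groups was not tested.

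A second probe set, 1370725_a_at, ran with it, at r = 0.98 on the log2 scale over the 9 arrays, a description, since both were read from the same RNA. It read 1917, 1065 and 3454 in major depression, 1182, 3186 and 4811 in mild depression, and 2671, 2670 and 2235 in control. The order of CUMS 1, 2 and 4 below and CUMS 3, 5 and 6 above the controls was the same. Of the 4 probe sets listed for G6pc, each is annotated to 3 genes (Psme3, Aoc3 and G6pc1), and only 1386944_a_at could be assigned to G6pc1 through a RefSeq transcript. The remaining shared probe sets gave other patterns. The probe set 1372506_at read 794, 464 and 600 in major depression, 563, 624 and 615 in mild depression, and 725, 688 and 705 in control, so that mild depression lay below control without overlap (log2 fold change −0.23, adjusted p = 0.853, limma). The probe set 1388582_at read 573 to 862 in major depression, 616 to 716 in mild depression and 635 to 681 in control. Neither can be tied to 1 gene with the tables used here.

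CUMS 2 and CUMS 4, the 2 rats with the lowest G6pc signals, also had the 2 highest beta-actin 3′ to 5′ ratios, and CUMS 2 the highest of GAPDH, 1.75 against 1.32 to 1.46 in the other 8 arrays. The part of RNA quality in the G6pc values was not tested. With both rats left out, an alternative chosen after seeing the data, the log2 fold change of G6pc in the 4 remaining CUMS rats against control was 0.33 (adjusted p = 0.722, limma), against −0.02 with all rats. Igfbp1, a liver secretory protein whose gene insulin lowers and FOXO1 raises, read 2934, 2160 and 4802 in major depression, 2928, 3057 and 9390 in mild depression, and 1817, 3560 and 3966 in control. The log2 fold change of Igfbp1 was 0.08 (adjusted p = 0.985, limma) in major and 0.57 (adjusted p = 0.860) in mild depression against control. CUMS 6 was highest and CUMS 2 lowest among the CUMS rats for both G6pc and Igfbp1, whereas control 1 was the highest control for G6pc and the lowest for Igfbp1.

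**Figure D2:**
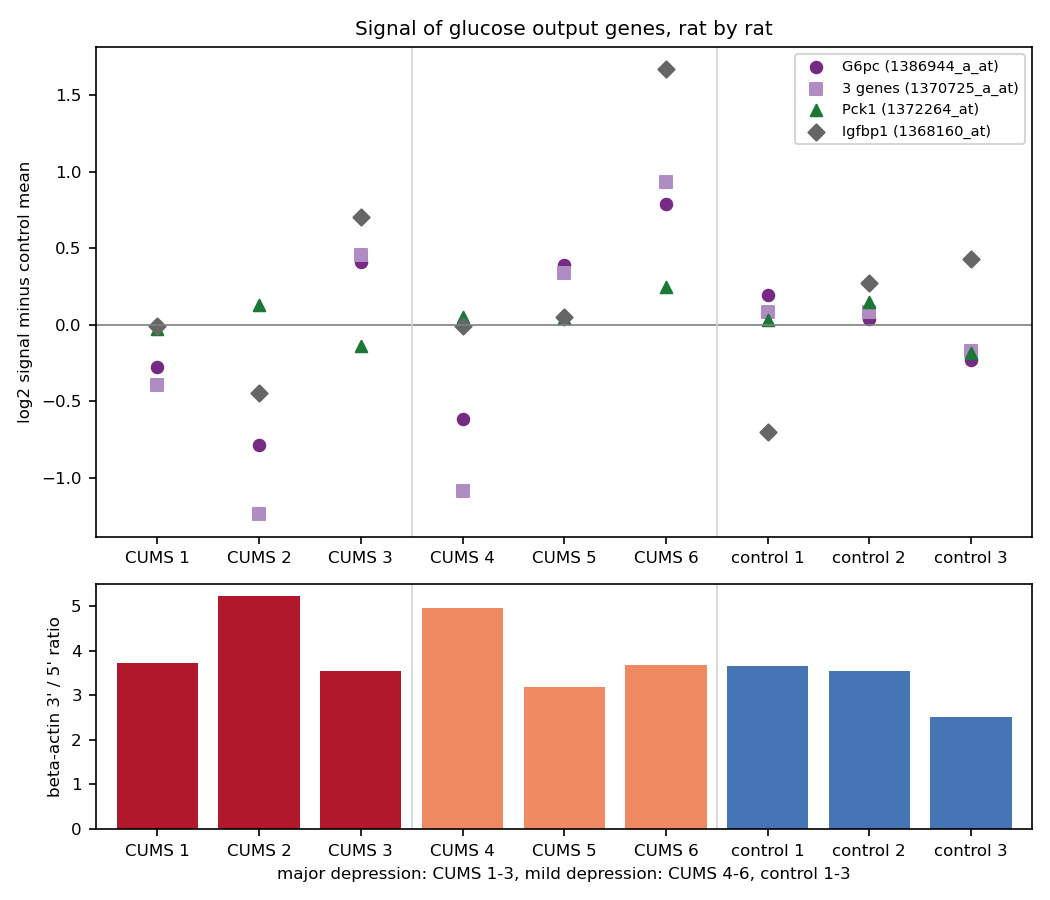
Upper panel: log2 signal minus the mean of the 3 controls for G6pc, a second probe set annotated to 3 genes, Pck1 and Igfbp1, in each of the 9 rats. Lower panel: beta-actin 3′ to 5′ ratio of the same arrays, from 2.51 in control 3 to 5.23 in CUMS 2. G6pc lies lowest in CUMS 2 and CUMS 4 and highest in CUMS 6, and the Pck1 signals span 22805 to 30787.

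Pairs of the members were also set against each other over the 9 rats. Pck1 and G6pc had Pearson's r = 0.16 (exact permutation p = 0.67) and Spearman's rho = 0.05 (exact permutation p = 0.912), and r = −0.46 (p = 0.3, exact permutation) without CUMS 6 and control 3, the rats farthest from the median of Pck1. Pck1 and Irs2 had r = −0.36 (exact permutation p = 0.346) and rho = −0.10 (p = 0.81), and r = −0.34 (p = 0.472) without the same rats. G6pc and Irs2 had r = 0.14 (exact permutation p = 0.712) and rho = 0.18 (p = 0.644), and r = −0.24 (p = 0.613) without CUMS 2 and CUMS 6. After adjustment over the 3 pairs the p was 0.712 for every r and 0.912 for every rho.

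Insr encodes the insulin receptor. Its stronger probe set, 1392043_at, read 694, 694 and 817 in major depression, 986, 666 and 698 in mild depression, and 787, 669 and 782 in control. Apart from CUMS 4, the highest, all rats lay between 666 and 817. The log2 fold change was −0.02 with a standard error of 0.17 (adjusted p = 0.990, limma) in major and 0.05 (standard error 0.17, adjusted p = 0.978) in mild depression against control. The second probe set, 1369051_at, read 151, 92.5 and 196 in major depression, 147, 215 and 185 in mild depression, and 159, 199 and 175 in control, with log2 fold changes of −0.34 (adjusted p = 0.857, limma) and 0.03 (adjusted p = 0.993). CUMS 2 was lowest on it. The 2 Insr probe sets did not run together over the 9 arrays (r = −0.10, a description).

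Irs1 and Irs2 encode the docking proteins that pass the signal of the receptor to phosphatidylinositol 3-kinase. Irs1 (1369771_at) was weak in these livers, at 86.2, 75.8 and 107 in major depression, 166, 101 and 127 in mild depression, and 102, 152 and 114 in control. CUMS 1 and CUMS 2 lay below all other rats, while CUMS 3 lay among the mild depression and control rats. Its log2 fold change in major depression was −0.45 against control (standard error 0.28, 95% interval −1.06 to 0.17, adjusted p = 0.788, limma) and −0.54 against mild depression (unadjusted p = 0.081 and adjusted p = 0.9996 from limma). In mild depression against control it was 0.09 (adjusted p = 0.978, limma).

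Irs2 (1371091_at), the docking protein whose gene is under FOXO1 control and is induced in fasting, read 401, 411 and 622 in major depression, 663, 483 and 538 in mild depression, and 458, 497 and 629 in control. CUMS 1 and CUMS 2 were again lowest, and CUMS 4 was highest. The estimated log2 change was −0.16 with a standard error of 0.21 (adjusted p = 0.919, limma) in major and 0.09 (standard error 0.21, adjusted p = 0.970) in mild depression against control. Leaving out single rats moved the value in major depression between −0.37 without CUMS 3 and −0.029 without control 3.

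Foxo1 encodes the transcription factor that insulin restrains, and it had the largest fold change among the main probe sets of the members in major depression. The probe set 1376779_at read 184, 141 and 284 in major depression, 43.3, 152 and 176 in mild depression, and 71.8, 106 and 123 in control. All 3 rats of major depression lay above all controls, as did CUMS 5 and CUMS 6, whereas CUMS 4 was the lowest of the 9. The fitted log2 fold change in major depression against control was 0.99 (standard error 0.49, 95% interval −0.09 to 2.08), with an unadjusted p = 0.069 and an adjusted p = 0.749 (limma), and in mild depression it was 0.10 with a standard error of 0.49 (adjusted p = 0.987). Its signals were near the middle of the array, with 52.1% of probe sets lower in mean. The unadjusted p lay under 0.05 in 6 of the alternative settings for major depression against control, between 0.0087 with the replicate block and 0.0475 with an offset of 50, while its adjusted p ranged from 0.516 to 0.987 over all alternatives of this comparison. Without CUMS 4 the log2 fold change of all CUMS rats against control was 0.87 (unadjusted p = 0.011, adjusted p = 0.467, limma), against 0.55 (adjusted p = 0.802) with all rats.

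The other Foxo1 probe sets were weaker and lay below the filter. The probe set 1377502_at read 29.9, 63.4 and 57.3 in major depression, 57.5, 36.6 and 71.0 in mild depression, and 30.7, 31.3 and 14.4 in control. Mild depression lay above control without overlap, and CUMS 1 lay among the controls. In the fit without a filter the log2 fold change was 0.99 (adjusted p = 0.855, limma) in major depression, 1.15 (adjusted p = 0.840) in mild depression and 1.07 (unadjusted p = 0.043, adjusted p = 0.713) in all CUMS rats against control. The probe set 1375688_at read 4.55 to 12.04 in all rats, near the bottom of the range of signals. The 2 stronger Foxo1 probe sets had r = 0.11 over the 9 arrays, a description.

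Gcgr encodes the receptor of glucagon. Its probe set 1370522_at read 1504, 1907 and 1916 in major depression, 2008, 2028 and 1189 in mild depression, and 2109, 2318 and 1098 in control. CUMS 6 and control 3 were low and the other 7 rats lay between 1504 and 2318. The log2 fold change was 0.01 with a standard error of 0.28 (adjusted p = 0.998, limma) in major and −0.05 (standard error 0.28, adjusted p = 0.990) in mild depression against control. Without control 3, the array with the high fibroblast and bile duct markers, it was −0.33 in major and −0.39 in mild depression. The part of other cell types in the Gcgr signal of control 3 was not tested.

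**Figure D3:**
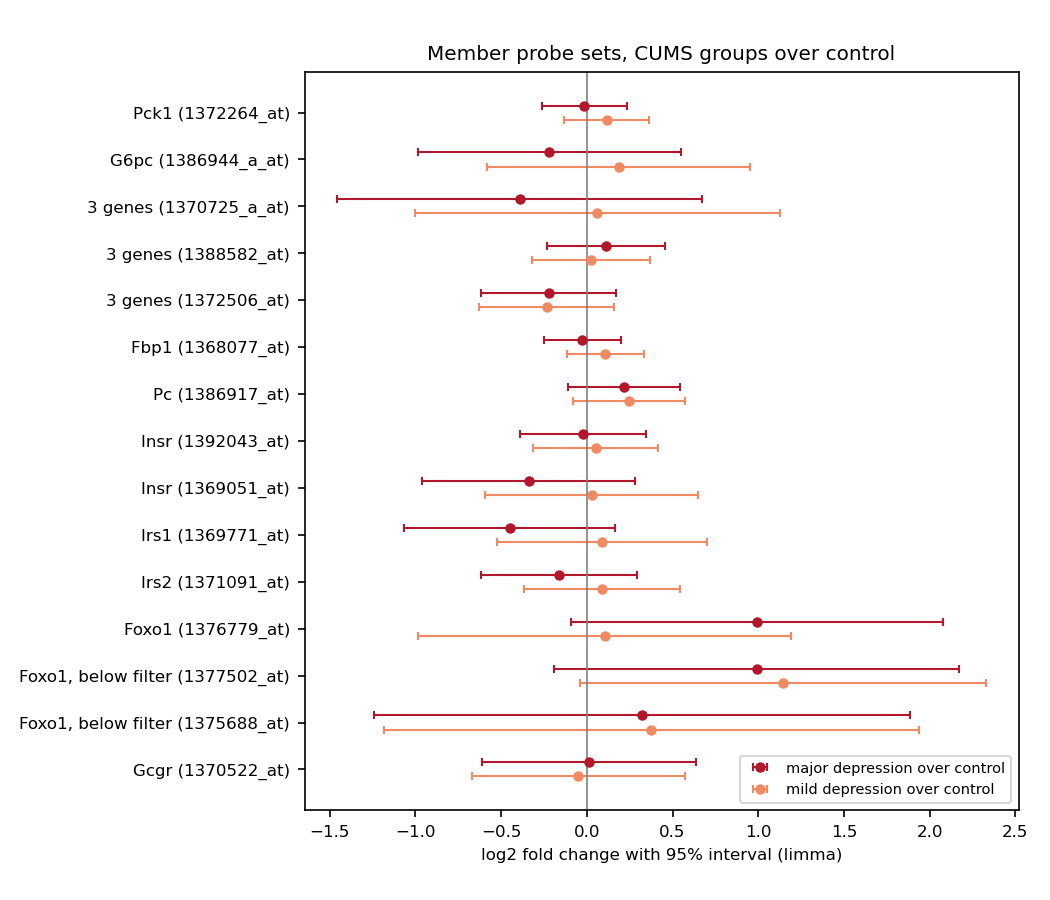
Log2 fold change with its 95% interval from limma for the 15 member probe sets, in major depression over control and mild depression over control. Probe sets marked 3 genes are annotated to Psme3, Aoc3 and G6pc1, and the weaker Foxo1 probe sets come from the fit without a signal filter. Every interval includes 0.

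Of 195 other genes placed around the members in 8 lists, 180 were named on the array and 174 were tested. In major depression against control 0 were called, and 10 higher and 5 lower genes had an unadjusted p under 0.05, which is 8.62% of the 174. In mild depression against control 0 were called, with 9 higher and 4 lower, 7.47% of the 174. Of the 10456 genes, 269 higher and 545 lower had such a p in major depression, and 337 higher and 438 lower in mild depression. Over all 18626 probe sets, which include several for some genes and unnamed ones, the shares were 6.76% and 6.28%. The median log2 fold change of the 174 genes was 0.01 in major and 0.02 in mild depression, beside −0.02 in each for all 10456 genes tested. Igfbp1 and Ppargc1a apart, the genes named here were those with the smallest p of their list, so that their values are the extremes of each list. All CUMS rats lay apart from all controls, in either direction, in 3.68% of all probe sets tested.

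Other enzymes and carriers of glucose output had a median log2 fold change of 0.10 over 22 genes in major depression, with 16 higher and 6 lower in mean, and of 0.12 in mild depression, with 17 higher and 5 lower. None passed the test. Without control 3 the medians were −0.01 in major and −0.0075 in mild depression, and without CUMS 1 the median in major depression was 0.03. Mdh2, the mitochondrial malate dehydrogenase that carries oxaloacetate carbon out towards Pck1, read 5799, 6568 and 5137 in major depression, 5401, 5534 and 5479 in mild depression, and 4633, 4718 and 4470 in control. All 6 CUMS rats lay above all controls (log2 fold change 0.33, adjusted p = 0.685, limma, in major depression). Mpc1, a subunit of the carrier that brings pyruvate into mitochondria, had log2 fold changes of 0.23 and 0.37 in major and mild depression (adjusted p = 0.767 and 0.744). Pck2, the mitochondrial counterpart of Pck1, read 235, 158 and 122 in major depression, 206, 254 and 238 in mild depression, and 291, 192 and 238 in control (log2 fold change −0.52, adjusted p = 0.751, in major depression).

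Of the genes of glycolysis, which runs against glucose output, 10 were tested, with medians of 0.19 in major and 0.21 in mild depression. Without control 3 these were 0.083 and 0.087, and without CUMS 2 the median in major depression was 0.32. Pfkfb2, an isoform of the bifunctional enzyme that sets fructose-2,6-bisphosphate, read 156, 172 and 177 in major depression, 147, 157 and 166 in mild depression, and 114, 106 and 143 in control, with all CUMS rats above all controls (log2 fold change 0.48, adjusted p = 0.733, limma, in major depression). Pfkfb1, the liver isoform, had log2 fold changes of 0.69 and 0.76 in major and mild depression (adjusted p = 0.769 and 0.783), and its 664 in control 3 was the lowest signal, below 1599 to 2796 in the other 8 rats. Pdha1, a subunit of pyruvate dehydrogenase, had 0.33 and 0.12 (adjusted p = 0.702 and 0.878). Gckr, the protein that holds glucokinase in the nucleus, had 0.04 and 0.55 (adjusted p = 0.983 and 0.755). Among 14 glycogen genes the medians were 0.14 and 0.11, and 0.048 and 0.0038 without control 3. Pgm1, phosphoglucomutase, had 0.40 and 0.28 (adjusted p = 0.599 and 0.758), and all 6 CUMS rats lay above all controls, between 3308 and 4120 against 2816 to 3298. Ugp2 and Phkb, which act in glycogen synthesis and breakdown, had 0.31 and 0.34 in major depression (adjusted p = 0.772 and 0.733).

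Among 25 genes that relay the insulin signal, the median log2 fold change was −0.03 in both groups. Akt1, one of the kinases that phosphorylate FOXO proteins, read 1774, 1661 and 1759 in major depression, 1551, 1602 and 1429 in mild depression, and 1901, 1950 and 1813 in control. All CUMS rats lay below all controls (log2 fold change −0.12 in major and −0.31 in mild depression, adjusted p = 0.850 and 0.744, limma). Foxo4, a relative of Foxo1, read 49.4, 91.6 and 98.2 in major depression, 73.8, 118 and 170 in mild depression, and 159, 128 and 153 in control (log2 fold change −0.93, adjusted p = 0.733, in major depression). Pik3cd, a catalytic subunit of phosphatidylinositol 3-kinase known from white blood cells, had −0.76 in major depression (adjusted p = 0.733), with Kupffer cell and macrophage markers summing to 24900 to 33760 in major depression, 25730 to 36240 in mild depression and 32100 to 48170 in control, and the part of those cells was not tested. Irs3 had 0.26 and 0.61 in major and mild depression (adjusted p = 0.900 and 0.780).

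Proteins that restrain the receptor formed a list of 24 tested genes with medians of −0.01 and 0.00. Ceacam1, which promotes uptake of insulin by hepatocytes, read 4712, 5511 and 4353 in major depression, 4194, 4329 and 4135 in mild depression, and 3417, 3714 and 3546 in control, with all CUMS rats above all controls (log2 fold change 0.44 and 0.25, adjusted p = 0.558 and 0.778, limma). Grb14, an adaptor that blocks the receptor's kinase, lay between 2445 and 2683 in CUMS rats against 2126 to 2424 in controls (0.24 and 0.18, adjusted p = 0.733 and 0.803). Stub1, a ubiquitin ligase, lay between 1031 and 1238 in CUMS rats against 1348 to 1479 in controls (−0.28 and −0.35, adjusted p = 0.733 and 0.744).

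On the side of glucagon, 29 genes of the cAMP path had medians of 0.00 in major and −0.05 in mild depression. After median centring they were 0.05 and 0.01. Without CUMS 2 the median in major depression was −0.06, and without CUMS 6 that in mild depression was 0.05. The adenylate cyclases Adcy4 and Adcy9, which make cAMP, had log2 fold changes of −0.81 and 0.52 in mild depression (adjusted p = 0.770 and 0.780, limma). Camk2d had −0.45 and −0.51 in major and mild depression (adjusted p = 0.769 and 0.783), and control 3, at 769, was its highest rat, above 304 to 408 in the other 8.

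The 30 tested transcription regulators of glucose output had medians of −0.03 and −0.07, and of −0.16 and −0.13 without control 3. Ppargc1a, a coactivator that glucagon and fasting induce in liver, read 260, 330 and 355 in major depression, 1038, 152 and 276 in mild depression, and 232, 771 and 315 in control. CUMS 4 and control 2 were high and the other 7 rats lay between 152 and 355, and CUMS 4 was among the lowest for G6pc. Creb3l3, a liver factor of the CREB family released from the endoplasmic reticulum, read 5113, 6193 and 6209 in major depression, 4020, 5058 and 6277 in mild depression, and 4753, 3079 and 3865 in control (log2 fold change 0.60, adjusted p = 0.695, limma, in major depression). Nr4a3, an early response factor, was highest in control 2, at 250 against 31.8 to 117 in the other 8 rats (−1.15 in major depression, adjusted p = 0.733). Id1 had −0.69 in mild depression (adjusted p = 0.756), and control 3, at 358, was its highest rat, above 137 to 306 in the other 8.

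Among 20 genes that FOXO1 or insulin are known to regulate, the medians were 0.00 in major and 0.13 in mild depression. They were −0.11 and 0.020 without control 3, and 0.16 and 0.22 without control 2. Mttp, which loads lipid onto nascent lipoproteins and which FOXO1 is known to raise, stood farthest from control relative to its error. It read 8305, 8856 and 8354 in major depression, 6819, 6916 and 7723 in mild depression, and 5573, 5874 and 5958 in control. The groups fell in the order major depression, mild depression and control with no overlap between any of them. Its log2 fold change was 0.55 with a standard error of 0.09 (adjusted p = 0.282, limma) in major depression and 0.30 (standard error 0.09, adjusted p = 0.744) in mild depression. Txnip, which glucose induces, had −0.28 and −0.24 (adjusted p = 0.749 and 0.808).

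**Figure D4:**
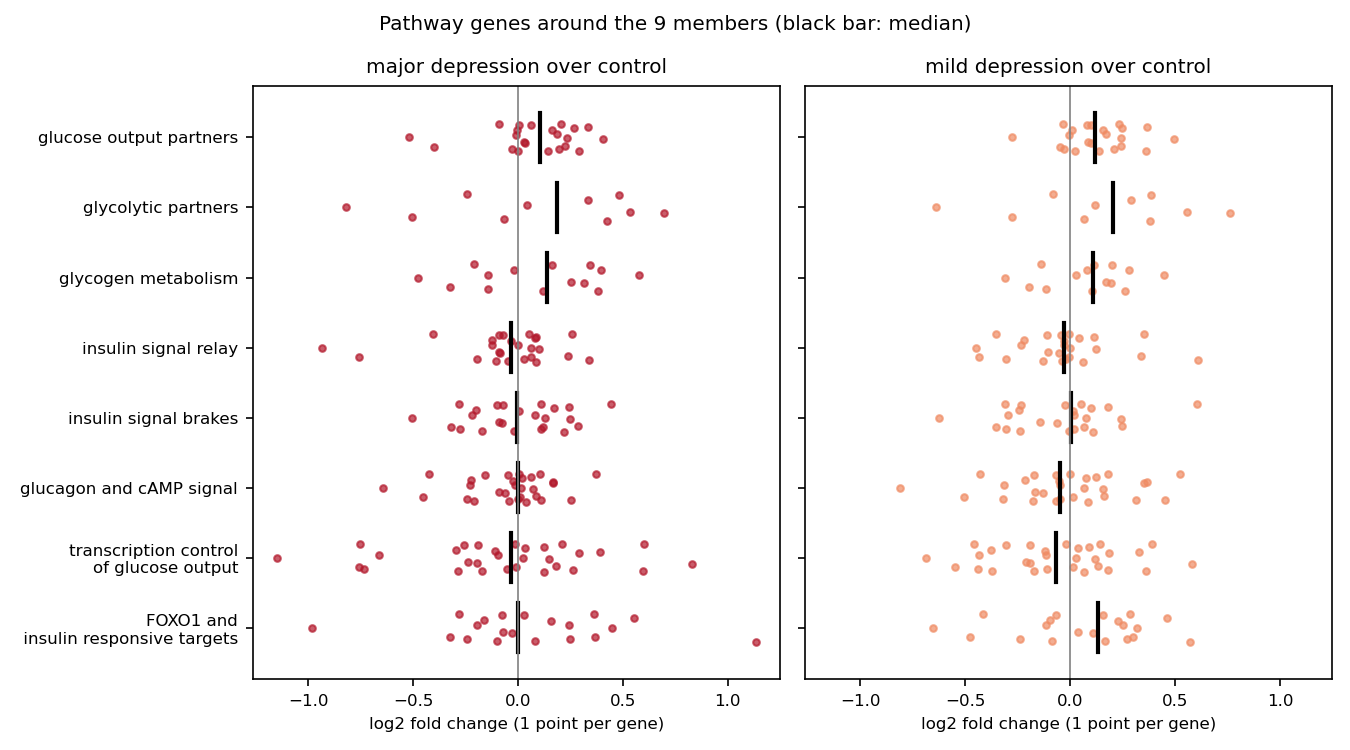
Log2 fold change of the tested genes in 8 lists around the members, in major depression over control (left) and mild depression over control (right). Each point is 1 gene and the black bar is the median of its list. The medians lie between −0.07 and 0.21.

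As a description of likeness, the gene whose log2 signal ran closest to each member over the 9 arrays, out of 10447 genes searched, was Apoh for Pck1 (r = 0.96), Ttc4 for G6pc (r = 0.92), Smim14 for Fbp1 (r = 0.97), Txndc15 for Pc (r = 0.98), Nfyb for Insr (r = 0.91), Tecpr2 for Irs1 (r = 0.94), Arl2 for Irs2 (r = 0.93), Kdm8 for Foxo1 (r = 0.95) and Fbxo34 for Gcgr (r = 0.95). Each is the highest of many values over few arrays.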

How the data were processed

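Liver RNA of 9 GK rats was measured on Affymetrix rat arrays, 1 array per rat and 3 rats per group. The deposited values are MAS 5.0 signal intensities on a linear scale, which the authors scaled per array (the mean without the lowest and highest 2% was 500.2 on each array). The median signal was 107.9 to 133.7. Groups were taken from the labels. For arrays, their number limits the precision. The CUMS rats were housed singly. Whether controls shared a cage, or animals of a group a litter, is not given in the sources used here.

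Without the 57 control probe sets, signals were raised to at least 1 (586 values) and put on the log2 scale. A filter on mean log2 signal dropped the lower 40%, and 18626 probe sets with a mean of at least 6.07 remained. The 3 groups were fitted together in R 4.3.3 with limma 3.58.1 and a variance trend (6 residual degrees of freedom), with Benjamini-Hochberg adjustment over all 18626. The script was tested on simulated data. Permutation tests used scipy 1.17.1 under Python 3.11.15, and the plots matplotlib 3.10.9. ANOVA, which the study's methods name, was an alternative.

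Probe sets were named from the platform annotation, 20826 with 1 gene and 436 with several, of which 80 were settled through a RefSeq transcript. A gene's main probe set is that with the highest mean log2 signal. The members, lists, tests and rule for naming were chosen with earlier results of these data known. Named beside the members are, from each of the 8 lists, the 2 genes with the smallest p in major and the 2 in mild depression against control, and Igfbp1 and Ppargc1a in any case, with the most alike gene of each member. Positions are those of RefSeq on GRCr8. Alternatives were quantile normalization, median centring, an offset of 50, no filter or a stricter one, no variance trend, array weights, a fit of the groups compared alone, the replicate number as a block, and leaving out each rat.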

Additional observations from a re-analysis of the deposited data

Results flagged for a closer look

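In 5 of the probe sets named above, 1 of the 6 CUMS rats lay far from the other 5 for the size of their range, on the log2 scale. Chance alone marks about 1 in 20 such groups, and 42 probe sets were looked at. Foxo1 (1376779_at) read 43.3 in CUMS 4, the lowest of the CUMS rats. Mpc1 read 10384 and Ugp2 10249 in CUMS 3, each the lowest. Gckr read 1727 in CUMS 2, the rat with the highest beta-actin and GAPDH 3′ to 5′ ratios, whose part was not tested. Pgm1 read 3308 in CUMS 6, also the lowest.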

How the results depend on the processing

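With 3 rats per group, 0 calls do not show that the members were unaltered. The number of probe sets called stayed at 0 in 62 of 65 alternative values. It was 1 by the ANOVA of the methods in major depression against control (Tmem123), and 1 after median centring in mild depression and in all CUMS rats against control (Gsta3 in both), names chosen after the values were seen. The member probe sets with an unadjusted p under 0.05 numbered 0 in 46 of 65 values. In major depression against control there was 1 after quantile normalization, median centring, an offset of 50, array weights, a fit of the groups compared alone, and the replicate block in that fit, each time Foxo1 1376779_at, and 0 to 1 when rats were left out in turn (the shared probe set 1372506_at without CUMS 1). In mild depression against control there was 1 by ANOVA (1372506_at) and 0 to 1 without single rats (Pc without CUMS 6). In all CUMS rats there was 1 without a filter (Foxo1 1377502_at), 1 with both CUMS 2 and CUMS 4 left out (Foxo1 1376779_at), and 0 to 1 without single rats (1372506_at without CUMS 1, Foxo1 1376779_at without CUMS 4, Pc without CUMS 6). In major against mild depression there was 1 without a variance trend (Irs1) and 0 to 2 without single rats (1386944_a_at and 1370725_a_at without CUMS 4, Irs2 without CUMS 3, Irs1 without CUMS 5, Foxo1 without CUMS 6). Rats with the same replicate number had correlations of 0.003, −0.05 and 0.14 after removal of group means, so the numbers were not taken to pair them.

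The log2 fold changes of the members' main probe sets kept their sign in 508 of 577 alternative values, and the other 69, none of them called, changed it. The cause of these changes was not tested. With no filter or a stricter one, no variance trend, ANOVA or the groups compared alone, the log2 fold change is the same by construction. The same holds for the replicate block. Such values are among the 508 and could not change sign, so the count overstates how stable the signs were. In major depression against control, quantile normalization gave 0.018 for Pck1 and 0.0099 for Insr, median centring gave 0.034 for Pck1, 0.021 for Fbp1 and 0.027 for Insr, and array weights gave −0.17 for Gcgr. Leaving out single rats gave −0.11 to 0.060 for Pck1, −0.53 to 0.064 for G6pc, −0.11 to 0.05 for Fbp1, −0.10 to 0.019 for Insr and −0.33 to 0.21 for Gcgr. With the sign kept, it gave 0.13 to 0.29 for Pc, −0.58 to −0.28 for Irs1, −0.37 to −0.029 for Irs2 and 0.72 to 1.22 for Foxo1. In mild depression against control, quantile normalization gave −0.0038 for Fbp1, median centring 0.0080 for Gcgr, and array weights −0.011 for Insr and −0.011 for Irs1. Leaving out single rats gave −0.11 to 0.59 for G6pc, −0.13 to 0.16 for Insr, −0.10 to 0.26 for Irs1, −0.039 to 0.22 for Irs2, −0.27 to 0.74 for Foxo1 and −0.39 to 0.20 for Gcgr. In all CUMS rats against control, quantile normalization gave −0.023 for Fbp1, 0.0075 for Irs2 and 0.00068 for Gcgr, median centring gave 0.037 for G6pc, 0.016 for Irs2 and 0.034 for Gcgr, and array weights gave −0.020 for Insr. With both CUMS 2 and CUMS 4 left out, G6pc stood at 0.33 and Insr at −0.054. Leaving out single rats gave −0.041 to 0.13 for Pck1, −0.17 to 0.19 for G6pc, −0.047 to 0.12 for Fbp1, −0.074 to 0.067 for Insr, −0.14 to 0.10 for Irs2 and −0.36 to 0.18 for Gcgr. In major against mild depression, quantile normalization gave 0.0088 for Pck1, and leaving out single rats gave −0.18 to 0.045 for Pc, −0.18 to 0.10 for Insr and −0.19 to 0.19 for Gcgr. The correlation of Pck1 with Irs2 was 0.0095 after quantile normalization, and that of G6pc with Irs2 was −0.023 after median centring. Without single rats the correlation of Pck1 with G6pc was −0.28 (CUMS 6 left out) to 0.39, and that of G6pc with Irs2 −0.16 to 0.48. Of the list medians, 20 of 144 alternative values moved by more than the spread between rats. Among these were medians of the glucagon and cAMP list, after median centring and without single rats such as CUMS 2 and CUMS 6. The medians of 5 lists without control 3 are given with those lists, whether or not they moved. The scalings moved the median of all genes by less than 0.1 on the log2 scale.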
